A study of Mus musculus with 10 samples.

Results

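Chromosome segregation depends on a set of proteins that condense the chromosomes, build the spindle, attach it to the kinetochores, hold anaphase back until every chromosome is attached, and finally divide the cell. Most of their genes are transcribed late in the cell cycle, so that a quiescent stem cell holds little of these mRNAs and a dividing progenitor holds much. In the adult bone marrow the most primitive hematopoietic stem cells are largely quiescent, while the progenitors that arise from them divide often. Here 40 genes of this machinery, chosen by name for their known roles, were followed among the 33393 genes of the deposited tables. They fall into 7 roles, with 5 genes of the spindle assembly checkpoint, 6 of the mitotic kinases and the chromosomal passenger complex, 7 of the centromere and kinetochore, 6 of the spindle, 7 of chromosome condensation, 4 of anaphase onset and 5 of the central spindle and cytokinesis.

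RNA-seq had been performed on CD34- HSCs, sorted from bone marrow as Lin- Sca1+ cKit+ CD34- Flt3- cells, of 8-week-old mice on a C57BL/6 background. The control mice carried Reg1flox/flox without Cre, and the mice labelled Reg1Δ/Δ carried Vav1-iCre with Reg1flox/flox, so that both groups had the floxed alleles and only 1 group had the recombinase. Vav1-iCre is active in the whole blood lineage from early development, so that cells outside the stem cell pool of these mice are recombined too, and the controls do not hold the Cre transgene. There were 5 libraries per group, with 3 per group in experiment 1 and 2 per group in experiment 2, as read from the sample names.

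Regnase-1 is an RNase that degrades mRNAs, and it is encoded by Zc3h12a, on chromosome 4 of GRCm38 (125118423 to 125127840, minus strand). Its level was 1.83, 1.28 and 1.6 TPM (a level per transcript length, scaled to the same total in each library) in the controls of experiment 1 and 3.54, 2.08 and 2.51 TPM in its libraries labelled Reg1Δ/Δ. In experiment 2 it was 1.48 and 6.07 TPM in the controls and 10.3 and 8.52 TPM in the libraries labelled Reg1Δ/Δ. The targeted gene was thus higher, not lower, in every library labelled Reg1Δ/Δ than in the controls of its experiment (log2 fold change 0.83 ± 0.28 SE, limma FDR 0.0314). The call was lost in experiment 1 alone (limma FDR 0.0527), in the second alone (limma FDR 0.265) and with no filter (limma FDR 0.0897). It was also lost without the experiment as a covariate (limma FDR 0.214) and with a block for the replicate number (limma FDR 0.0505). Leaving out any 1 of 4 libraries lost it too (limma FDR up to 0.0768). These were the second control and the first library labelled Reg1Δ/Δ of experiment 1 and both libraries labelled Reg1Δ/Δ of experiment 2. The reads over the floxed exons were not analysed here. All directions below are therefore given for the libraries labelled Reg1Δ/Δ.

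The libraries split by experiment before they split by group. Expression correlated at 0.913 on average between libraries of the same experiment and at 0.673 between experiments. Protein-coding transcripts took 46.2 to 49.1% of the TPM in experiment 1 and 73.5 to 81.1% in the second. The controls had 13366 to 14307 genes of at least 1 TPM and the libraries labelled Reg1Δ/Δ 11256 to 12048. Several defining stem cell markers were present in the controls and near 0 in the libraries labelled Reg1Δ/Δ. Procr, the endothelial protein C receptor of long-term stem cells, was at 19.8 to 37.3 TPM in the controls and 0.108 to 1.36 TPM in the others. Fgd5, another stem cell gene, was at 2.61 to 7.5 TPM against 0.0364 to 0.210 TPM. Of 13 stem cell markers tested, 12 were lower in the libraries labelled Reg1Δ/Δ. Kit, on which the cells were sorted, was among them but remained at 56.1 to 116 TPM, against 106 to 367 TPM. Ly6a (Sca-1), also used in the sort, was the 1 that did not pass (0.92 ± 0.51, limma FDR 0.155), and its difference was positive. It was at 105, 108 and 85.2 TPM in the controls of experiment 1 and 449, 50.9 and 369 TPM in its libraries labelled Reg1Δ/Δ. In experiment 2 it was at 68.1 and 73.8 TPM against 124 and 115 TPM. There it was called higher in that experiment alone (0.74, limma FDR 0.0366). The cells are therefore named below by how they were sorted.

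The promoters of genes of this kind often hold a pair of short elements, CCAAT, which NF-Y binds, and the cell cycle genes homology region (CHR), which the MuvB complexes bind. RefSeq promoters (250 bases before to 50 bases after each start, GRCm38.p6) were found for 34 of the 40 genes and searched on both strands for each element. A CHR was read as the letters TTTGAA, or with another base in the middle as the letters TTCGAA, and the second element as its name spells it. An E2F element was read as any of TTTGGCGC, TTTCGCGC or TTCCCGCC. CHR was found in 27 of the 34 promoters (79.4%), against 41.7% of 144 promoters of other mitotic and cell cycle genes and 21.7% of the promoters of all 27025 genes. CCAAT was found in 25 (73.5%), against 59.7% and 41.1%. Both stood together in 24 (70.6%), against 29.2% and 8.61%. An E2F word was found in 1 promoter, that of Ncapd2 (2.94%, against 20.8% and 3.39%). In 24 of the 27 promoters the CHR nearest the start lay within 50 bases of it. The window ended 50 bases after the start, so that any CHR after the start counted here. No such share was taken for other promoters. Where a CCAAT lay before a CHR (24 promoters) the median distance from the nearest was 33.5 bases. A CHR and a CCAAT shared bases in 1 promoter, that of Cdca8.

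The 120 bases before the start are shown here for 7 of the 10 genes with a promoter that were higher in the libraries labelled Reg1Δ/Δ. Those of Kif23, the 1 that was lower, are shown too. Birc5, Kif2c and Cdca8, also higher, are not shown. In their windows Birc5 had no match, Kif2c a CHR alone and Cdca8 both CHR and CCAAT. Each sequence is printed on the strand of the gene, from 5′ to 3′, and the capitals mark a match to CHR, to CCAAT or to its reverse complement ATTGG.
Plk1 (GRCm38.p6, chr7:122159315-122159434, plus strand): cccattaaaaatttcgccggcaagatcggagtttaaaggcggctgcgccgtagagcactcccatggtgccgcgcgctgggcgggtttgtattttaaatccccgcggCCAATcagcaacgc
Aurka (chr2:172370571-172370690, minus strand): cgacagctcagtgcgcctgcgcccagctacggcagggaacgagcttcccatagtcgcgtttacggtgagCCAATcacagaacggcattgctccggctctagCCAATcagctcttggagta
Cenpa (chr5:30666766-30666885, plus strand): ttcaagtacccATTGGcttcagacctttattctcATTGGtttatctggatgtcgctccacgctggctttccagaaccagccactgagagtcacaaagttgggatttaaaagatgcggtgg
Mad2l1 (chr6:66535101-66535220, plus strand): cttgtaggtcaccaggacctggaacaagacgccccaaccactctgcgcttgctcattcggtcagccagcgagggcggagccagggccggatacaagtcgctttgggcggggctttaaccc
Hmmr (chr11:40733438-40733557, minus strand): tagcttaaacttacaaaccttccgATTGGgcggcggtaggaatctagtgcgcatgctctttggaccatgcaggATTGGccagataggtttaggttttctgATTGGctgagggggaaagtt
Cdc20 (chr4:118437344-118437463, minus strand): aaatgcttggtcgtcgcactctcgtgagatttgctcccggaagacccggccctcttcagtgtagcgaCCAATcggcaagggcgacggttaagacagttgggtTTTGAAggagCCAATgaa
Prc1 (chr7:80294331-80294450, plus strand): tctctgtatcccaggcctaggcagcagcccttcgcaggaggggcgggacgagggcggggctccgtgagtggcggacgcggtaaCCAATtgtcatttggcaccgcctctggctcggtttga
Kif23 (chr9:61946800-61946919, minus strand): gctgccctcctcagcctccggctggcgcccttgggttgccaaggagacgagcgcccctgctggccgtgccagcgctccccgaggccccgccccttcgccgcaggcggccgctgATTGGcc

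In Cdc20 the CHR begins 18 bases before the start and a CCAAT 53 bases before it. Plk1, Aurka, Cenpa, Hmmr and Kif23 also hold a CHR, which begins after the start and so beyond the bases shown, and that of Prc1 begins 5 bases before the start and runs across it. Mad2l1 holds none of the 3 elements in its window. CHR and CCAAT stood together in 7 of the 10 promoters of genes that were higher (70.0%) and in 17 of the 24 others (70.8%). A match is a run of letters and not a measured site of binding.

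**Figure D1:**
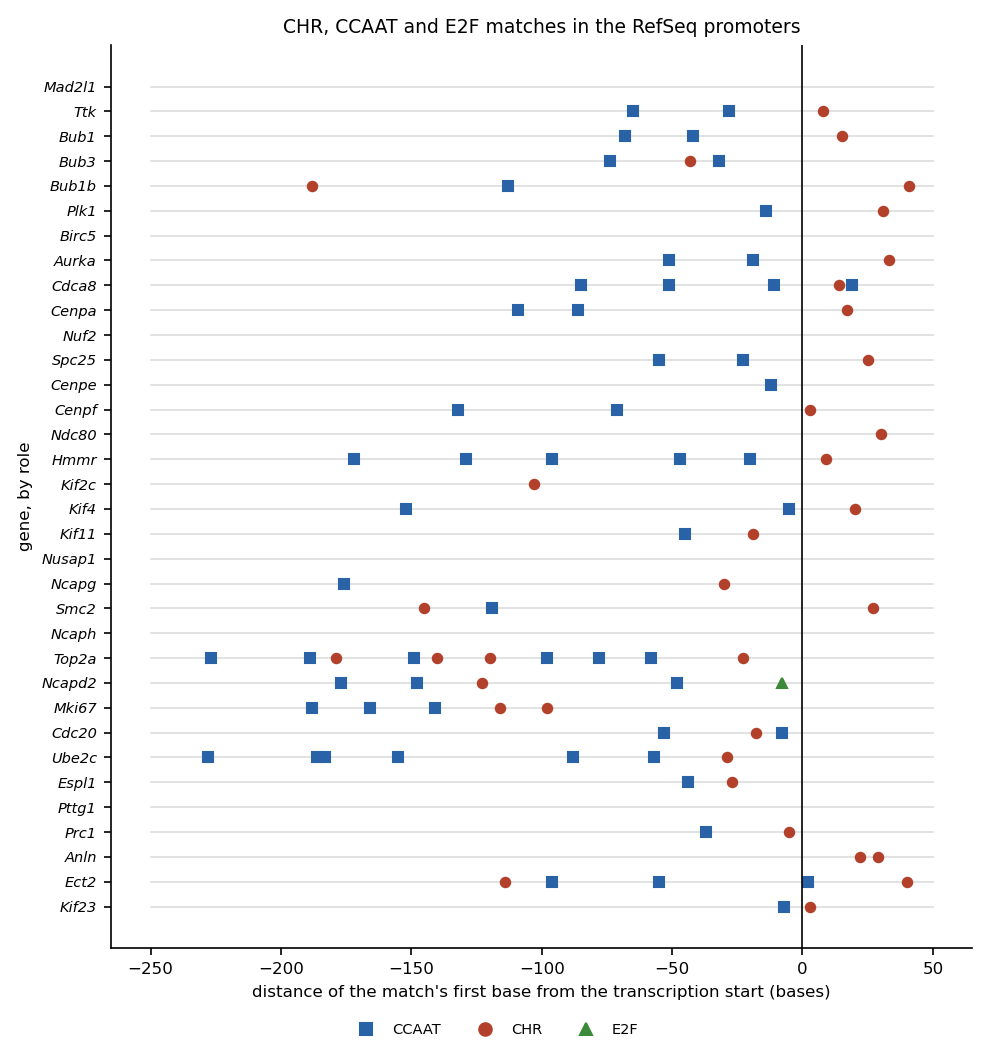
Positions of CHR (circles), CCAAT (squares) and E2F (triangle) matches in the RefSeq promoters of 34 mitosis genes. The x axis gives the distance of the first base of a match from the transcription start in bases and the y axis the genes, ordered by role. Within a window that ends 50 bases after the start, the CHR matches gather around it, with the CCAAT matches mostly before them.

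All 40 genes passed the filter on low values (at least 1 TPM in at least 5 of 10 libraries), with means over all libraries of 10.2 to 238 TPM. In a limma fit on log2(TPM + 1) that took the experiment into account, 13 of the 40 were higher in the libraries labelled Reg1Δ/Δ (32.5%), 1 was lower (2.5%) and 26 passed in neither direction. Among all 12874 genes tested 15% were higher and 37.9% lower, and among the 7392 genes whose mean TPM lay in the range of the 40 these shares were 19.4% and 31.1%. The median log2 fold change was 0.21 over the 40 genes, -0.25 over all genes tested and -0.11 over those of like TPM. Scaling moved these counts. With median-of-ratios scaling, which shifted the median of all genes tested to 0.05, 26 of the 40 were higher and 1 lower (all genes: 3973 higher, 3425 lower), and their median was 0.56. Of the 7392 genes of like TPM 2995 were then higher and 1401 lower, with a median of 0.22. After quantile normalization, with a median of all genes of 0.14, 16 were higher and 1 lower (all genes: 3861 and 2636; genes of like TPM: 2274 and 1455, with a median of 0.13), and their median was 0.40. These 16 held 11 of the 13, without Birc5 and Cdca8. Without the experiment as a covariate 1 gene, Cenpa, was higher. The median of the 40 lay above those of all genes and of the genes of like TPM under each scaling, and Kif23 was the 1 lower gene under each. The 40 genes were chosen with earlier results of these data known, so that these counts describe the set and no test was run on it.

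The 13 genes that were higher were Plk1, Mad2l1, Cenpa, Spc24, Cdc20, Aurkb, Birc5, Hmmr, Kif2c, Aurka, Kif20a, Prc1 and Cdca8, in the order of their log2 fold changes, which ran from 0.75 to 0.33. In 12 of the 40 genes every library labelled Reg1Δ/Δ lay above every control of its own experiment, as against 12.7% of all genes tested, and in 1, Kif23, every such library lay below, as against 31.4%. These 12 held Ube2c, which did not pass the test, but neither Cenpa nor Cdca8. The summed TPM of the 40 genes was 2186, 2981 and 2764 in the controls of experiment 1 and 3247, 3274 and 3454 in its libraries labelled Reg1Δ/Δ. It was 2846 and 2612 in the controls of experiment 2 and 2952 and 2856 in the others. The sums of the groups did not overlap within either experiment, but in the second the lower library labelled Reg1Δ/Δ lay just above the higher control.

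**Figure D2:**
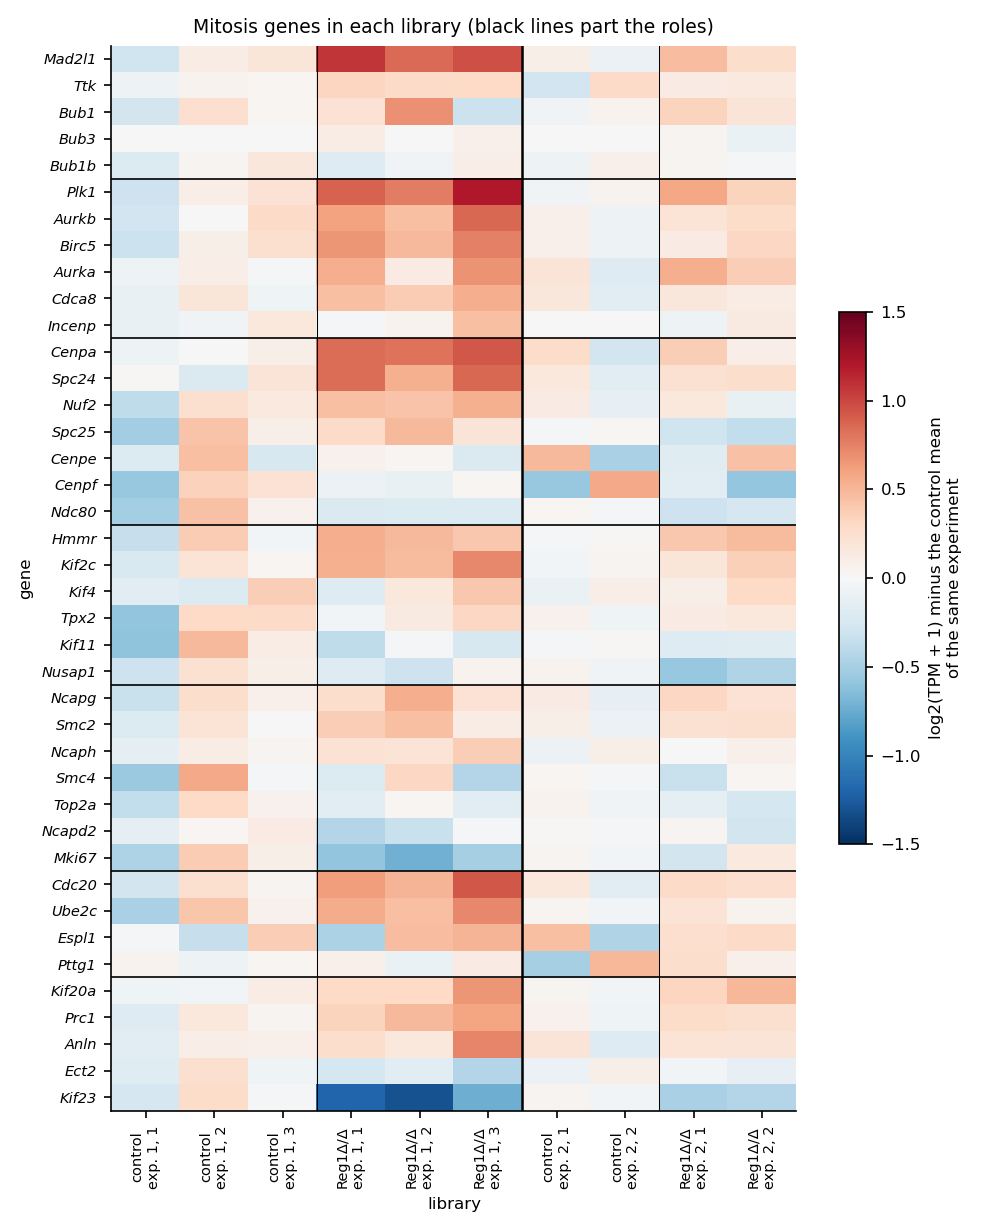
Level of the 40 mitosis genes (y axis, by role) in each of the 10 libraries (x axis), as log2(TPM + 1) minus the mean of the controls of the same experiment, with red above and blue below it. Plk1, Mad2l1 and Cenpa are the reddest rows in experiment 1, Kif23 is the bluest, and experiment 2 is paler than the first.

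Of the 7 roles, the mitotic kinases and the chromosomal passenger complex had the highest median log2 fold change, 0.46, and 5 of their 6 genes were higher. After quantile normalization 3 of the 6 were, and the median of 0.43 was below those of the checkpoint (0.46) and, by little, of the spindle genes. Plk1 (chromosome 7 of GRCm38, 122159439 to 122169873, plus strand), the polo-like kinase that drives mitotic entry, centrosome maturation and cytokinesis, was at 26.3, 35.5 and 38.3 TPM in the controls of experiment 1 and at 61.7, 56.8 and 76.7 TPM in its libraries labelled Reg1Δ/Δ. In experiment 2 it was at 63.8 and 69.1 TPM against 99.7 and 84.2 TPM. No control reached a library labelled Reg1Δ/Δ of its experiment, and the log2 fold change was 0.75 ± 0.16 (SE, limma FDR 0.00269), the largest rise of the 40.

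Aurora kinase A (Aurka), which acts at the centrosomes and spindle poles, was at 39, 44.4 and 40.7 TPM against 60.8, 44.9 and 66.4 TPM in experiment 1 and at 59.8 and 45.8 TPM against 76.5 and 68 TPM in the second. The second library labelled Reg1Δ/Δ of experiment 1 thus lay barely above its highest control. Its log2 fold change of 0.45 ± 0.13 (limma FDR 0.0168) was nearly the same in both experiments, at 0.45 and 0.46.

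The other genes of this group belong to the chromosomal passenger complex, which corrects faulty attachments at the centromere and later moves to the central spindle. Aurkb, its kinase, was at 65.7, 79.9 and 98.1 TPM against 122, 110 and 147 TPM in experiment 1 and at 79.1 and 71.5 TPM against 86.6 and 90.9 TPM in the second (0.48 ± 0.15, limma FDR 0.0201). Birc5 (survivin) was at 71.1, 94.4 and 105 TPM against 141, 125 and 151 TPM, and at 170 and 152 TPM against 175 and 199 TPM (0.47 ± 0.14, limma FDR 0.0201), and its call was lost without the third library labelled Reg1Δ/Δ of experiment 1 and after quantile normalization (limma FDR 0.0704). Neither gene overlapped between the groups within an experiment. Cdca8 (borealin) was at 63.3, 78 and 65.4 TPM against 94.2, 90 and 101 TPM in experiment 1, while 116 and 91.7 TPM against 116 and 111 TPM overlapped in the second. Its call (0.33 ± 0.12, limma FDR 0.0374) was the weakest of the 13 and was lost when any 1 of 7 libraries was left out (all but the second control of experiment 1, the first control of the second and its second library labelled Reg1Δ/Δ), and after quantile normalization (limma FDR 0.0643). Incenp, the scaffold of the complex, did not pass (0.11 ± 0.12, limma FDR 0.489).

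Of the 5 genes of the spindle assembly checkpoint, which keeps the anaphase-promoting complex inactive until every kinetochore is attached, only Mad2l1 was called. Mad2l1 (chromosome 6, 66535390 to 66547220, plus strand), the subunit that binds and holds Cdc20, was at 94.2, 126 and 132 TPM against 245, 211 and 228 TPM in experiment 1 and at 83.2 and 73.3 TPM against 108 and 94.2 TPM in the second. Every library labelled Reg1Δ/Δ was above its controls, and the log2 fold change was 0.72 ± 0.15 (limma FDR 0.00303). The checkpoint kinases Ttk (0.24 ± 0.12, limma FDR 0.12) and Bub1 (0.22 ± 0.18, limma FDR 0.337) did not pass. The values of Bub1 in the libraries labelled Reg1Δ/Δ of experiment 1, 43.7, 60.9 and 30 TPM, spanned those of its controls, 30.8, 45 and 38.3 TPM. Bub3 and Bub1b, which dock the checkpoint on the kinetochore and inhibit Cdc20, lay within 0.03 of 0 on the log2 scale. With median-of-ratios scaling all 5 genes were higher (median 0.56), and after quantile normalization 2 were, Mad2l1 and Ttk.

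Anaphase onset was followed by 4 genes. Cdc20, the activator of the anaphase-promoting complex that Mad2l1 restrains, was at 122, 174 and 151 TPM against 229, 211 and 281 TPM in experiment 1 and at 109 and 87.1 TPM against 119 and 116 TPM in the second (0.52 ± 0.15, limma FDR 0.0149). The inhibitor and its target were thus both higher, without overlap of the groups within an experiment. Ube2c, the ubiquitin-conjugating enzyme of the complex, was at 77.9, 146 and 114 TPM against 161, 149 and 180 TPM, and at 228 and 214 TPM against 255 and 230 TPM. Its groups did not overlap within an experiment either, but it did not pass (0.40 ± 0.17, limma FDR 0.0809). Pttg1 (securin) and Espl1 (separase), the inhibitor and the protease that cleaves cohesin, had log2 fold changes of 0.09 ± 0.17 (limma FDR 0.699) and 0.21 ± 0.25 (limma FDR 0.503).

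At the centromere and kinetochore 2 of 7 genes were higher. Cenpa (chromosome 5, 30666777 to 30674830, plus strand), the histone H3 variant that marks the centromere and among the 40 the gene with the highest mean level, was at 154, 161 and 172 TPM against 291, 285 and 309 TPM in experiment 1. In the second it was at 278 and 190 TPM against 297 and 245 TPM, which overlapped, and over both the log2 fold change was 0.61 ± 0.16 (limma FDR 0.00907). Spc24 was at 112, 95.2 and 127 TPM against 198, 161 and 203 TPM and at 88.7 and 70.8 TPM against 92.7 and 95.4 TPM (0.54 ± 0.14, limma FDR 0.0107).

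Spc24 is 1 of the 4 subunits of the Ndc80 complex, the main coupler of kinetochores to microtubules, and the other 3 did not pass. Nuf2 had a log2 fold change of 0.29 ± 0.15 (limma FDR 0.136), Spc25 of 0.06 ± 0.20 (limma FDR 0.82) and Ndc80 of -0.24 ± 0.16 (limma FDR 0.236). The difference between Spc24 and its partners was not tested. Spc25 was the member with the clearest change of sign between the experiments, at 0.32 in the first and -0.34 in the second (interaction, limma FDR 0.499). Of these 7 genes the large kinetochore proteins Cenpe and Cenpf were the least precise, with standard errors of 0.22 and 0.25 around log2 fold changes of 0.03 and -0.19.

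Of the 6 genes of spindle motors and spindle assembly, Hmmr and Kif2c were higher. Hmmr, a microtubule-binding protein of the spindle poles, was at 12.5, 21.4 and 15.7 TPM against 24.1, 23.1 and 21.7 TPM and at 23.5 and 24.2 TPM against 31.9 and 33.5 TPM (0.46 ± 0.13, limma FDR 0.0154). Kif2c (MCAK), a kinesin that depolymerises microtubules, was at 11.3, 15.5 and 13.7 TPM against 19.8, 19 and 22.8 TPM and at 25.7 and 27.2 TPM against 30.1 and 34.2 TPM (0.46 ± 0.12, limma FDR 0.0105). The groups of both genes lay apart within each experiment. Kif4 and Tpx2 had small positive differences (0.15 and 0.13), and Kif11, the motor that pushes the poles apart, and Nusap1 negative ones (-0.20 and -0.29), none of which passed.

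None of the 7 genes of chromosome condensation and decatenation passed, and their median log2 fold change was -0.13. The condensin I subunits were split, with Ncapg at 0.31 ± 0.13 (limma FDR 0.0797), Smc2 at 0.28 ± 0.11 (limma FDR 0.0646) and Ncaph at 0.17 ± 0.10 (limma FDR 0.183) above 0, and Smc4 at -0.13 ± 0.22 (limma FDR 0.653) and Ncapd2 at -0.20 ± 0.12 (limma FDR 0.183) below it. Top2a, which untangles sister DNA and is a common marker of dividing cells, was at 67.5, 108 and 91.2 TPM against 78.2, 88.6 and 78.1 TPM and at 260 and 242 TPM against 227 and 209 TPM (-0.14 ± 0.13, limma FDR 0.399). Mki67, which encodes the proliferation antigen Ki-67 and coats the condensed chromosomes, was at 9.18, 17.2 and 13.9 TPM against 8.31, 7.53 and 8.95 TPM in experiment 1 and at 72.3 and 68 TPM against 57.8 and 77.5 TPM in the second (-0.39 ± 0.18, limma FDR 0.101). These proliferation markers thus did not pass in either direction, and Top2a, Smc4, Ncapd2 and the median of the group were above 0 under median-of-ratios scaling (median 0.22). Smc2, Ncapg and Ncaph were then called higher, as were Ncapg and Ncaph after quantile normalization.

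The central spindle and cytokinesis group held both directions. Kif20a, a kinesin that carries the passenger complex to the midzone, was at 23.3, 23.8 and 26.4 TPM against 30.3, 30.3 and 39.1 TPM and at 39.6 and 37.4 TPM against 48.5 and 54.8 TPM (0.42 ± 0.11, limma FDR 0.00839). Prc1, which bundles the antiparallel microtubules there, was at 76.9, 98.5 and 90.7 TPM against 112, 125 and 133 TPM and at 53.9 and 49.4 TPM against 62.7 and 61.3 TPM (0.39 ± 0.11, limma FDR 0.013). In both genes the groups stood apart in each experiment.

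Kif23 was the exception of the set. It lies on chromosome 9 of GRCm38 (61915905 to 61946774, minus strand) and encodes MKLP1, the kinesin of centralspindlin, which is needed to build the midzone and to complete cytokinesis. Its level was 51.5, 74.5 and 60.4 TPM in the controls of experiment 1 and 26.5, 24.2 and 36.5 TPM in its libraries labelled Reg1Δ/Δ, and 54.2 and 51.5 TPM against 37.4 and 38.7 TPM in the second. All libraries labelled Reg1Δ/Δ lay below all controls, in either experiment and across both. The log2 fold change was -0.83 ± 0.17 (limma FDR 0.00259), with -1.08 in experiment 1 and -0.46 in the second. It was also lower under both other scalings. Ect2, the exchange factor that centralspindlin recruits, did not pass (-0.21 ± 0.12, limma FDR 0.167), and neither did the contractile ring scaffold Anln (0.31 ± 0.14, limma FDR 0.0915).

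**Figure D3:**
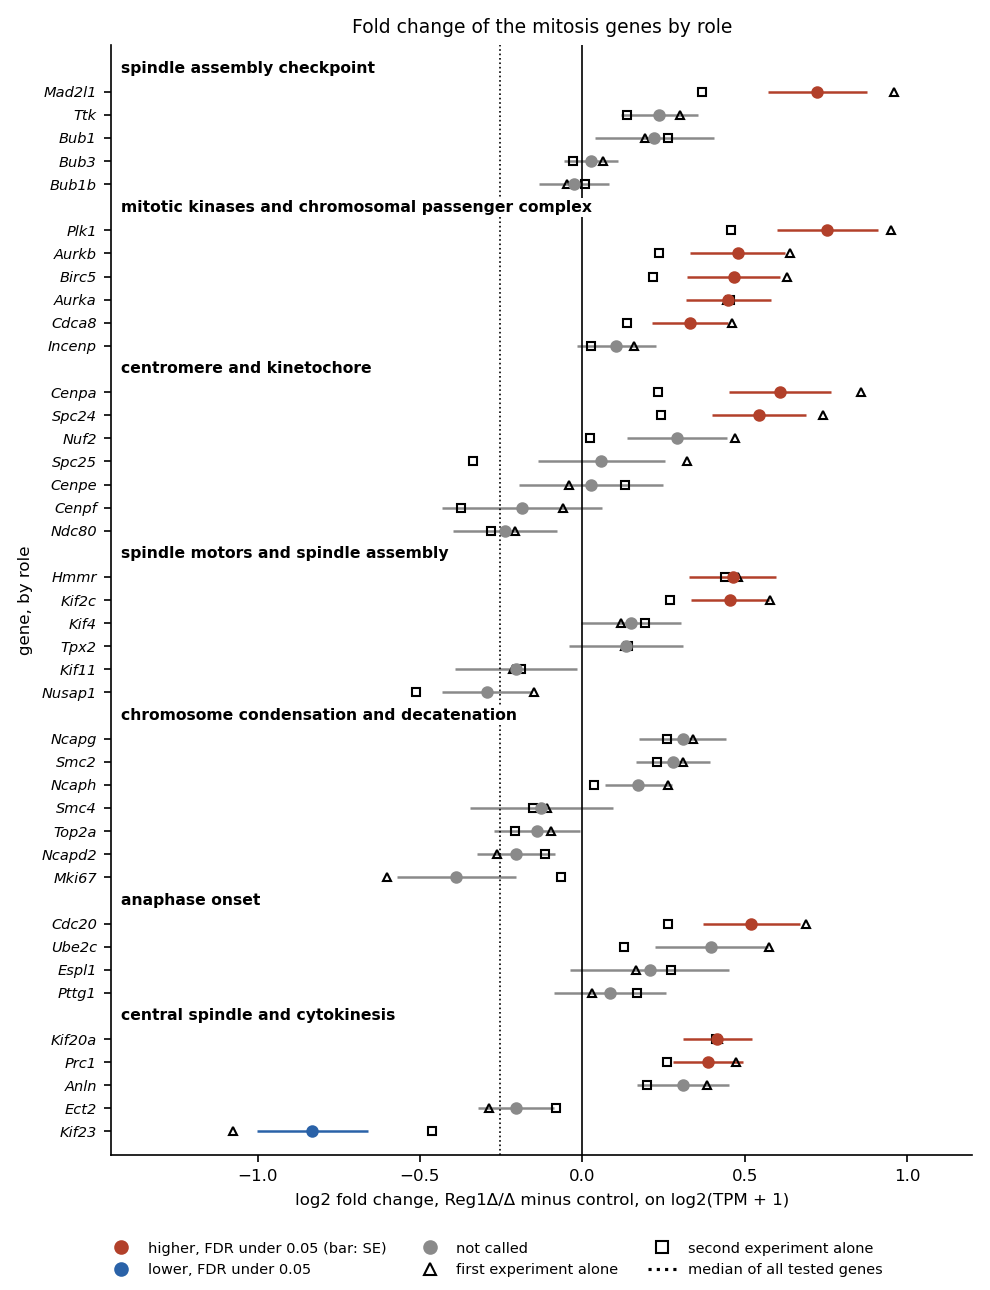
Log2 fold change of the 40 mitosis genes by role (x axis, libraries labelled Reg1Δ/Δ minus control, on log2(TPM + 1); y axis, genes), with the standard error as a bar, red for higher, blue for lower and grey for not called. Open triangles and squares give the first and experiment 2 alone, the dotted line the median of all genes tested (-0.25), and 13 genes are red against 1 blue.

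The 2 experiments have their own controls and can be set side by side. The log2 fold change was positive in both for 26 genes, negative in both for 10 and of opposite sign for 4, with a Spearman correlation of 0.76 across the 40 genes, which are not independent of each other. All 13 genes that were higher over both were positive in each, with a median of 0.63 (0.42 to 0.96) in experiment 1 and 0.27 (0.14 to 0.46) in the second, and for 12 of the 13 the first was the larger. In experiment 1 alone 10 genes were higher and Kif23 lower, against 12% and 38.3% of all genes tested. In the second alone, with 2 libraries per group, none was called in either direction, against 3.51% and 12.3%. The difference of the effect between the experiments passed for none of the 40 (limma interaction, 0.443% of all genes tested), while at an unadjusted p under 0.05 there were 2 of the 40, Cenpa and Mad2l1, against 1603 of the 12874 genes tested. The calls made over both experiments were thus also made mostly in the first alone and not in the second alone.

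The files give transcripts, and these show what lay behind the gene totals. Of the 234 transcripts of the 40 genes 141 passed the filter, and 12 of these, of 12 genes, were higher and 4, of 3 genes, lower, as against 6.4% and 14.9% of all transcripts tested. These counts were fragile, with 5 to 17 higher and 2 to 4 lower on leaving out 1 library, and 5 higher without the first control or the third library labelled Reg1Δ/Δ of experiment 1. The share of the summed TPM in protein-coding transcripts was 60.7 to 63.3% in experiment 1 and 84.9 to 88.7% in the second. Transcripts under 1000 bases held 54.1 to 56.8% in the first and 26.2 to 30.7% in the second. The experiments thus differed in the transcripts that made up the gene totals. The share in retained-intron transcripts was lower in every library labelled Reg1Δ/Δ than in the controls of its experiment, at 13.7 to 15.2% against 15.3 to 18.3% in experiment 1 and 2.52 to 2.75% against 3.17 to 4.60% in experiment 2. In experiment 2 the protein-coding share of the 40 genes was also apart, at 88.5 to 88.7% against 84.9 to 86.7%. Over all genes the protein-coding share was 48.2 to 49.1% against 46.2 to 47.5% in experiment 1, also apart. In experiment 2 it was 73.5 and 81.1% against 78.3% in both controls. The retained-intron share over all genes was not taken. The part of these shares in the levels was not tested.

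For 8 of the genes that were higher the transcript called was a protein-coding one of over 1000 bases. That of Plk1 (2199 bases) held 99.3% of the gene and changed by 0.75 ± 0.17 (limma FDR 0.0139). Those of Aurkb (1950 bases, 0.61 ± 0.14, limma FDR 0.0111), Spc24 (1366 bases, 0.65 ± 0.15, limma FDR 0.0155), Hmmr (3892 bases, 0.54 ± 0.12, limma FDR 0.0128) and Aurka (1862 bases, 0.53 ± 0.15, limma FDR 0.0387) were also higher. The same held for Cdca8 (1626 bases, 0.50 ± 0.13, limma FDR 0.0279), Cdc20 (1793 bases, 0.52 ± 0.16, limma FDR 0.0483) and Kif2c (2842 bases, 0.44 ± 0.13, limma FDR 0.0436). The transcript called held 54.9% of the gene in Aurkb and 76.9% in Aurka. In Cdc20 all protein-coding transcripts held 29.1 to 31.9% of the gene in experiment 1 and 98.0 to 100% in the second.

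Mad2l1 was different. A processed transcript of 229 bases held 42.5% of its TPM, at 49.7, 66.9 and 71.7 TPM against 147, 126 and 131 TPM in experiment 1 and at 0 in all 4 libraries of the second. Its protein-coding transcript of 1725 bases was at 28.9, 43.2 and 35.1 TPM against 63.4, 56.4 and 53.5 TPM and at 54.3 and 56.5 TPM against 64.4 and 61.3 TPM, apart in both experiments but not past the threshold (0.49 ± 0.16, limma FDR 0.0635). The Mad2l1 transcript that passed was one with a retained intron (1680 bases, 0.85 ± 0.23, limma FDR 0.0261). In Cenpa the transcript called was one annotated for nonsense-mediated decay (1031 bases, 0.57 ± 0.15, limma FDR 0.0274), which held 40.4% of the gene.

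The total of Pttg1 did not pass, but 1 protein-coding transcript of 696 bases was at 2.96, 5.8 and 2.3 TPM against 8.55, 8.13 and 12.7 TPM in experiment 1 and at 0 in both controls against 4.81 and 2.71 TPM in the second (1.63 ± 0.28, limma FDR 0.00307). It held 8.85% of the gene. A retained-intron transcript of 388 bases had a negative difference that did not pass (-1.14 ± 0.65, limma FDR 0.243). In Kif23 the full-length coding transcript of 3398 bases was at 3.74, 6.53 and 3.98 TPM against 1.93, 1.44 and 2.76 TPM and at 18.8 and 16.8 TPM against 8.46 and 10.2 TPM (-0.89 ± 0.18, limma FDR 0.00781), so that the fall was seen in the long mRNA of both experiments. A Kif23 processed transcript of 392 bases fell by 0.64 (SE 0.18, limma FDR 0.0335). The other transcripts called, seen after the fit, were a 733-base coding one of Prc1 (higher), a 575-base coding one of Mki67 (lower) and a 576-base retained intron of Smc4 (lower), each under 10% of its gene.

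**Figure D4:**
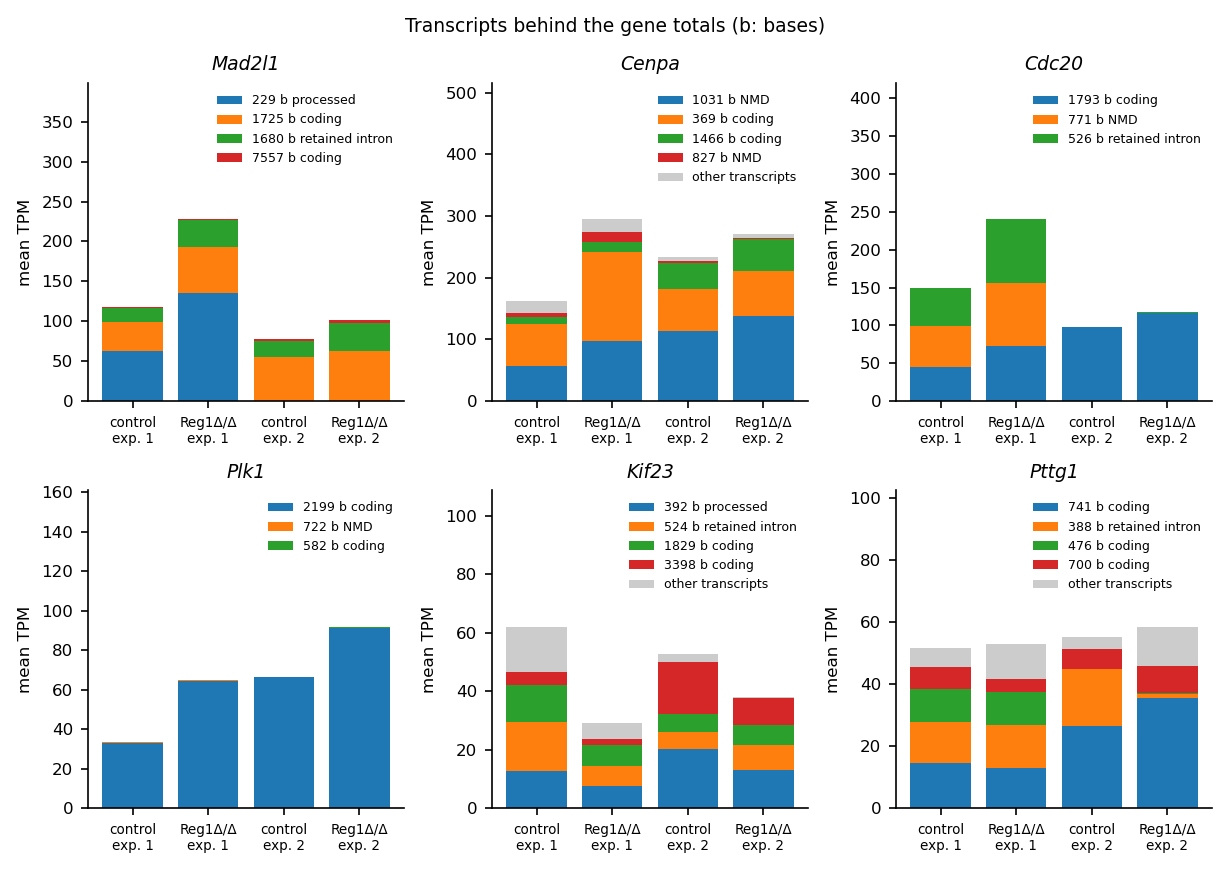
Mean TPM of the transcripts of Mad2l1, Cenpa, Cdc20, Plk1, Kif23 and Pttg1 (y axis) in the 4 sets of libraries (x axis: control and labelled Reg1Δ/Δ in experiments 1 and 2), stacked by transcript, with the length in bases and the annotated class. The 229-base transcript of Mad2l1 and the 771- and 526-base ones of Cdc20 are seen in experiment 1 and at or near 0 in the second, while Plk1 is nearly all 1 coding mRNA.

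The genes that were higher tended to be short. The TPM-weighted transcript length had a median of 1548 bases in the 13 and 2399 bases in the other 27, and across the 40 genes the log2 fold change and the length had a Spearman correlation of -0.39, against -0.08 over the genes of like TPM. With the longest coding transcript of each gene alone, which 35 of the 40 genes had among the tested, it was -0.29, against -0.20 over the genes of like TPM on the same values. The part of transcript length in the result was not tested. Several of the genes overlap another gene on the opposite strand, and whether the counting used strand is not given in the sources used here. Cdc20 overlaps Elovl1 (mean 124 TPM), Kif20a overlaps Cdc23 (54.3 TPM), Kif4 overlaps Pdzd11 (42.4 TPM), Nusap1 overlaps Oip5 (23.8 TPM) and Prc1 overlaps Rccd1 (13.8 TPM), so that these totals are less certain.

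The neighbouring genes of the cell cycle, in 7 further lists, were read in the same fit. Of 181 genes 47 were higher (26.0%) and 29 lower (16.0%), against 15% and 37.9% of all genes tested, with a median log2 fold change of 0.11 against -0.25. Around the entry into mitosis 8 of 16 were higher and 2 lower (11 and 1 with median-of-ratios scaling, 9 and 1 after quantile normalization). Cks2, a small subunit of the cyclin-dependent kinases, had means of 112 TPM against 200 TPM and 319 TPM against 429 TPM in the experiments (0.68 ± 0.12, limma FDR 0.000896), and the phosphatase Cdc25c rose by 0.63 ± 0.13 (limma FDR 0.0028). The other way went Cdc25b, a further phosphatase that activates Cdk1, from a mean of 20.4 to 5.48 TPM and from 28.9 to 7.52 TPM (-1.73 ± 0.20, limma FDR 8.69e-05), and the inhibitory kinase Wee1 (-0.42 ± 0.14, limma FDR 0.0277).

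Among 35 other kinetochore and centromere genes 12 were higher and 2 lower (26 and 1 with median-of-ratios scaling, 22 and 0 after quantile normalization). Zwilch, of the complex that loads dynein and the checkpoint on kinetochores, rose by 0.97 ± 0.19 (limma FDR 0.00214), and Cenpu by 0.84 ± 0.11 (limma FDR 0.00018). Cenpb, which binds centromeric satellite DNA, fell by 1.16 (SE 0.19, limma FDR 0.000602) and Cenpt by 0.55 (SE 0.18, limma FDR 0.025). The list of 44 other spindle, centrosome and cytokinesis genes had 7 higher and 7 lower (15.9% each, against 15% and 37.9% of all genes tested), which became 18 and 4 with median-of-ratios scaling and 17 and 3 after quantile normalization. Cep55, which acts at the midbody in the last step of cytokinesis, had the strongest fall there, from a mean of 10.2 to 2.39 TPM and from 12.7 to 3.7 TPM (-1.60 ± 0.22, limma FDR 0.000241), followed by Numa1, an organiser of the spindle poles (-1.16 ± 0.19, limma FDR 0.000677). The largest rises were those of Psrc1 (0.48 ± 0.12, limma FDR 0.00623) and Kif24 (0.45 ± 0.16, limma FDR 0.0339).

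Of the 17 genes of cohesin and condensin II, 0 were higher and 6 lower (35.3%, near the 37.9% of all genes tested), among them the alternative cohesin subunits Stag2 (-0.80 ± 0.14, limma FDR 0.00124) and Stag1 (-0.78 ± 0.13, limma FDR 0.000624). Of 17 genes of the anaphase-promoting complex 1 was higher, Anapc15 (0.45 ± 0.14, limma FDR 0.0205), and 2 lower, Anapc2 (-0.57 ± 0.14, limma FDR 0.00723) and Cdc16 (-0.28 ± 0.10, limma FDR 0.0331). Cdc16 was above 0 (0.06) under median-of-ratios scaling, where Anapc2 did not pass.

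Of 23 transcriptional regulators of mitotic genes 4 were higher (17.4%) and 10 lower (43.5%), shares near the 15% and 37.9% of all genes tested. Rbl2 (p130), which holds these genes silent in quiescent cells as part of the DREAM complex, fell from a mean of 29.4 to 10.3 TPM and from 22.8 to 12.3 TPM (-1.19 ± 0.16, limma FDR 0.000216), and E2f5 by 1.10 (SE 0.19, limma FDR 0.000989). E2f4, the other E2F of that complex, rose by 0.87 ± 0.16 (limma FDR 0.00143), and Mybl2 (B-Myb), which with MuvB activates genes with a CHR, by 0.68 ± 0.18 (limma FDR 0.00932). These counts depended on the scaling. With median-of-ratios scaling 5 genes of cohesin and condensin II were higher and 2 lower, 9 and 0 of the anaphase-promoting complex, and 7 and 5 of the regulators. After quantile normalization the counts were 2 and 3, 3 and 1, and 9 and 2. The median was -0.28 for cohesin and condensin II, -0.24 for the regulators and -0.05 for both the anaphase-promoting complex and the other spindle genes, and under median-of-ratios scaling all 4 were above 0 (0.06, 0.05, 0.29 and 0.29), as they were after quantile normalization (0.10, 0.01, 0.02 and 0.34). Stag1, Stag2, Rbl2, Cdc25b, Cep55 and Numa1 were lower under each scaling. Wee1, Cenpt and Cdc16 did not pass under either of the other scalings, and Cenpb and E2f5 did not after quantile normalization. Of 30 genes of DNA replication 15 were higher and 0 lower, with a median of 0.32 (28 and 0 with a median of 0.66 with median-of-ratios scaling, 13 and 0 with 0.34 after quantile normalization). Cdc6, which loads the replicative helicase, had the largest rise (0.91 ± 0.13, limma FDR 0.000244), followed by Fen1, the flap endonuclease (0.89 ± 0.14, limma FDR 0.000454).

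**Figure D5:**
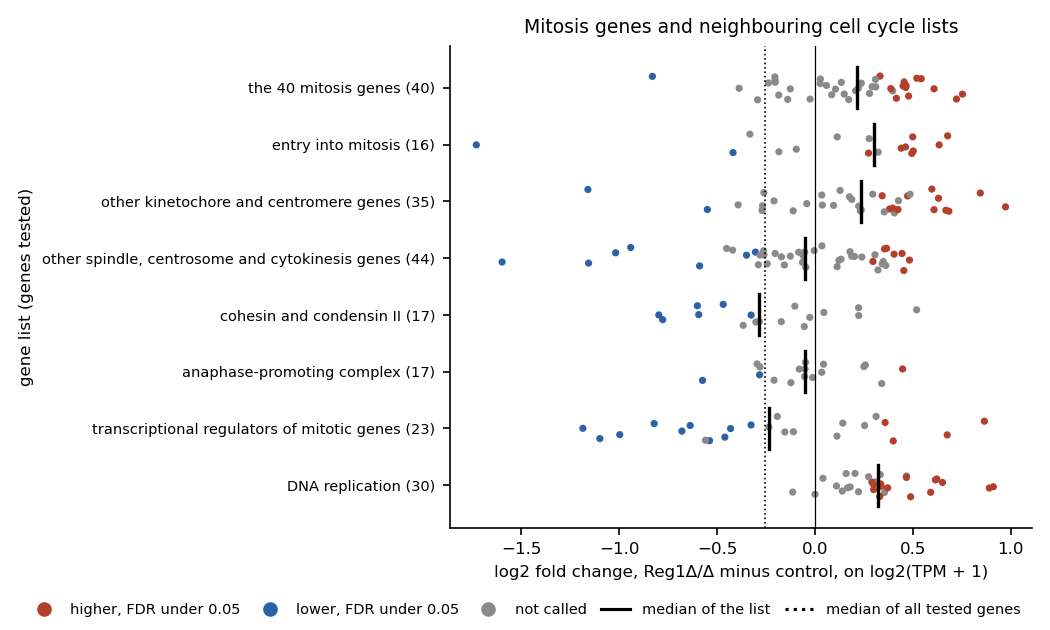
Log2 fold changes (x axis, libraries labelled Reg1Δ/Δ minus control, on log2(TPM + 1)) of the 40 mitosis genes and of 7 neighbouring cell cycle lists (y axis, with the number of genes tested), 1 point per gene, red for higher and blue for lower. The black bars are the medians, from 0.32 in DNA replication to -0.28 in cohesin and condensin II (above 0 under both other scalings), and the dotted line is the median of all genes tested (-0.25).

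In these bulk libraries fewer cells of a type and less RNA per cell cannot be told apart, and markers of other cell types moved with the groups. Of the 14 neutrophil and myeloid markers 11 were lower in the libraries labelled Reg1Δ/Δ, with a summed level of 3541 to 5848 TPM against 375 to 1247 TPM in experiment 1 and 12066 to 13935 TPM against 999 to 1094 TPM in the second. In experiment 2 this sum was mostly S100a8 and S100a9 (means of 3046 and 6063 TPM in the controls), while the granule genes Elane, Mpo and Ctsg had small positive differences there (0.16, 0.01 and 0.17) that did not pass. All 10 B lineage markers tested of 12 were lower, with sums of 193 to 1244 TPM against 5.69 to 25.4 TPM in experiment 1 and of 1441 to 1634 TPM against 3.2 to 8.89 TPM in experiment 2. The first control of experiment 1 had the lowest B lineage sum and the lowest sum of the 40 mitosis genes among the controls. Without it 12 of the 40 genes were higher and 4 lower, with Kif11, Ndc80 and Nusap1 added to Kif23.

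Erythroid markers went in both directions. Klf1, the erythroid master regulator, was higher in the libraries labelled Reg1Δ/Δ, at 27.8 to 132 TPM in the controls and 242 to 322 TPM in the others, as was Car1, a carbonic anhydrase, at 505 to 2709 TPM against 6028 to 8301 TPM. The haemoglobin gene Hbb-bs was lower, at 696 to 1997 TPM against 77.5 to 206 TPM. Of the 13 erythroid markers 6 were higher and 6 lower, and the sum of the list was 4211 to 7423 TPM against 10904 to 11758 TPM in experiment 1 and 8039 to 9718 TPM against 9967 to 10159 TPM in the second. Of the megakaryocyte markers 7 of 9 tested were lower and 1, Gp1ba, was higher, and all 4 T and NK markers tested of 11 were lower. Cd34 and Flt3, which the sort selects against, were both lower, with Cd34 at 51.9 to 236 TPM in the controls and 9.54 to 19.8 TPM in the others. Cd48, which is not named in the sort, did not pass (0.33 ± 0.17, limma FDR 0.119), although every library labelled Reg1Δ/Δ lay above the controls of its experiment. The part of these cell types in the levels of the mitosis genes was not tested.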

How the data were processed

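CD34- HSCs were sequenced as 5 libraries labelled control and 5 labelled Reg1Δ/Δ in 2 experiments. Whether each library came from 1 mouse is not given in the sources used here. The authors aligned paired-end reads with STAR to GRCm38, quantified GENCODE transcripts with Salmon 0.9.1 and deposited log2(TPM + 1) for 95912 transcripts per library. The version of the cDNA kit differs between the paper and the labels. The header of 1 file labelled Reg1Δ/Δ of the second experiment carries the name of another library, though the values differ. Read depth is unknown, so no counting error can be given.

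The deposited log2 values were turned back into TPM and summed per gene. Genes of at least 1 TPM in at least 5 of 10 libraries were tested on log2(TPM + 1) with limma 3.58.1 in R 4.3.3, with the experiment as a covariate and Benjamini-Hochberg adjustment at 0.05 over all genes tested. A fold change on this scale understates that of low genes. Experiments were read from sample names and the paper, and replicate numbers did not pair the samples. The code was tested on simulated data. Tables were made with pandas 2.3.3 and figures with matplotlib 3.10.9. Coordinates are those of the GENCODE annotation on GRCm38, and promoters those of RefSeq on GRCm38.p6.

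The text names all 40 genes, Zc3h12a, the 2 largest rises and 2 largest falls among the called genes of each list, transcripts of at least 1 TPM that oppose or hold most of a gene, and markers near 0 or most abundant. Other transcripts and markers were named after their values were seen. The members and lists were chosen with earlier results of these data known. Other scalings, filters, pseudocounts, designs and transcript sets were tried, the longest protein-coding transcript alone after the data were seen.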

Additional observations from a re-analysis of the deposited data

How the results depend on the processing

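The numbers of the 40 genes called higher and lower (13 and 1) were 26 higher with median-of-ratios scaling and 1 higher without the experiment covariate. In experiment 2 alone 0 were called in either direction. Leaving out 1 library gave 11 to 16 higher and 1 to 4 lower. The 4 lower came without the first control of experiment 1, and 2 lower (Kif23 and Mki67) without the second library labelled Reg1Δ/Δ of experiment 2. With the longest protein-coding transcript alone, an alternative chosen after seeing the data, 10 of 35 tested were higher and 3 lower. Of all 8093 genes tested on those values 1473 were higher and 2758 lower. Of the 13, Aurka, Birc5, Spc24, Kif20a and Prc1 did not then pass (limma FDR 0.0523 to 0.905), and Mad2l1 was not among those tested. The median of 0.21 became 0.56 with median-of-ratios scaling and 0.40 with quantile normalization (0.16 to 0.24 on leaving out 1 library). For the cell cycle lists (47 higher, 29 lower) the counts were 103 and 13 with median-of-ratios scaling, 74 and 10 with quantile normalization, 13 and 10 without the covariate, 3 and 5 in experiment 2 alone, and 29 to 51 and 20 to 31 on leaving out 1 library, with the 29 without the third library labelled Reg1Δ/Δ of experiment 1. For all genes (1933 higher, 4880 lower) 3973 were higher with median-of-ratios scaling, and the counts were 3861 and 2636 with quantile normalization, 716 and 3052 without the covariate, 452 and 1581 in experiment 2 alone, and 1548 to 1961 and 4409 to 5242 on leaving out 1 library. For the transcripts (12 higher, 4 lower) 25 were higher with median-of-ratios scaling, 0 in either direction without the covariate and in experiment 2 alone, and 0 lower with quantile normalization, 2 lower with 1 TPM in every library and 1 lower with no filter. Leaving out 1 library gave 5 to 17 higher and 2 to 4 lower, with 5 higher without the first control or the third library labelled Reg1Δ/Δ of experiment 1. The causes of these changes were not tested.

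Zc3h12a passed at 0.83 but not in experiment 1 alone (0.52, limma FDR 0.0527), the second alone (1.30, limma FDR 0.265), without the covariate (0.83, limma FDR 0.214) or with no filter (0.83, limma FDR 0.0897), and on leaving out 1 library it ran from 0.53 to 0.99 (limma FDR 0.0121 to 0.0768). The replicate numbers did not pair the samples (same-number correlations of 0.0334, 0.175 and 0.0683 in experiment 1 and -0.0544 in the second). In a fit with a block for the replicate number 12 of the 40 genes were higher and 1 lower (Cdca8 did not pass, limma FDR 0.0752), 6 transcripts were higher and 2 lower, and Zc3h12a was at 0.83 (limma FDR 0.0505).

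Of the genes that changed sign in any alternative, Cdc16 was called and the others were not. With median-of-ratios scaling Bub1b was at 0.32, Cenpf at 0.13, Ndc80 at 0.10, Kif11 at 0.14, Nusap1 at 0.054, Top2a at 0.21, Smc4 at 0.22, Ncapd2 at 0.15, Ect2 at 0.14 and Cdc16 at 0.062. With quantile normalization Bub1b was at 0.0013, Bub3 at -0.065, Cenpf at 0.41, Ndc80 at 0.074 and Ect2 at 0.060. In experiment 2 alone Bub1b was at 0.0089, Bub3 at -0.027 and Spc25 at -0.34, in the first alone Cenpe was at -0.042, and with protein-coding transcripts only Bub3 was at -0.040. On leaving out 1 library Bub1b ran from -0.078 to 0.025, Cenpe from -0.14 to 0.16, Cenpf from -0.36 to 0.021, Pttg1 from -0.080 to 0.23, Smc4 from -0.28 to 0.028, Spc25 from -0.12 to 0.14 and Tpx2 from -0.026 to 0.22. Of 1322 comparisons over 63 named genes 1149 kept direction and side of the threshold, 113 lost the call, 28 gained one and 32 changed sign.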
